A study of Mus musculus with 30 samples.

Results

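The aorta of B cell-deficient uMT mice was compared 42 days after CaCl2 and 42 days after a sham operation, with 3 arrays in each group, 6 of the 30 arrays of the study. The arrays were chosen by their titles, and all 55681 non-control probes on them were read. The study applied CaCl2 at 0.5 M, or saline in the sham group, around the abdominal aorta of wild type (WT) and uMT mice, with RNA taken before the operation or 7 or 42 days after it, and concerns, by its title, the part of B cells, antibodies and Syk in this aneurysm. All 6 arrays carry the genotype uMT, the strain C57BL/6 and the same tissue label, abdominal aortic aneurysm, which is given to the sham samples too. Neither the age of the mice nor the number of aortas behind an array is given in the labels. They do not say that replicates came from separate animals, so the p values measure the spread between these samples, which may be technical.

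As background, uMT mice carry a disrupted membrane form of the IgM heavy chain, which stops B cell development, so that mature B cells and most antibody are missing. CaCl2 on the outer face of the aorta is a model of aneurysm in which elastic fibres break, the wall takes up calcium, smooth muscle is lost and macrophages enter. Antibody bound to Fc receptors signals in macrophages and mast cells through the tyrosine kinase Syk, and so do several C-type lectins and integrins, which need no antibody. The comparison asks how the wall of a mouse without mature B cells responded 42 days after CaCl2.

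Values are log2 signal relative to the 75th percentile of the array, called levels below, and a change is the CaCl2 mean minus the sham mean, in log2 units ± the standard error (SE) of the fit, with n = 3 against 3. Adjusted p values come from limma over 23268 gene names, and "rose" or "fell" marks an adjusted p under 0.05. Where none of the 3 arrays of the dimmer group gave signal well above background, the change is given as "at least" a fold, a lower bound against the larger of the probe's own signal and the array's lowest signal well above background. The tissue was bulk aorta, so fewer cells of a type and less RNA per cell cannot be told apart.

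Between 43.2% and 52.4% of the probes were well above background on the CaCl2 arrays and between 45.8% and 53.3% on the sham arrays. Correlations across genes were 0.962 to 0.98 within the CaCl2 group, 0.957 to 0.97 within the sham group and 0.924 to 0.972 between them. Smooth muscle (Acta2, Myh11, Tagln, Cnn1), endothelial (Pecam1, Cdh5), fibroblast (Pdgfra, Dcn, Lum) and macrophage genes (Cd68, Adgre1, Csf1r) were well above background on all 6 arrays. Of the B cell genes, Ms4a1 and Pax5 were so on 0 of 6 arrays, and Cd79a and Cd79b on 5 of 6 each. The CaCl2 arrays lay on slide 5 and the sham arrays on slide 4, so slide and treatment cannot be told apart in the day 42 comparison, and with slide as a random block over all arrays 0 genes passed the test (230 higher and 19 lower at an unadjusted p under 0.05). The estimated correlation within slides was 0.782, and -0.0687 without the array of WT sham day 42 replicate 2, the only array on its slide and scan day, called the lone WT array below. That array is no part of the comparison but widens the pooled spread (r = 0.718 at lowest with its group), so counts are given with and without it. Brackets after a count of list members give the range of that count when 1 of the 6 compared arrays was left out at a time, and the count without the lone WT array. All 36 list counts that fell on leaving out an array reached their lowest without sham replicate 2 or 3 or CaCl2 replicate 1 or 2. Ties were included, and the myeloid lectin count, for example, was as low without CaCl2 replicate 3.

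In all, 1075 genes were higher after CaCl2 (4.62% of those tested) and 398 lower (1.71%). Without the lone WT array the counts were 2063 (8.87%) and 1431 (6.15%). Each list count below is to be read against these shares, and a count near them does not set a list apart. Over all genes the median change was -0.04, and the macrophage, chemokine, Fc receptor and Syk, collagen and matrix protease lists had medians above 1, while contractile smooth muscle and white fat had -1.94 and -2.17. Leaving out sham replicate 3 left 426 higher and 70 lower genes, sham replicate 2 left 661 and 189, CaCl2 replicate 1 left 542 and 99, and CaCl2 replicate 2 left 657 and 151. The first principal component of the 6 arrays held 49.4% of the variance and separated the groups. Sham replicate 1 lay nearest to the CaCl2 arrays on it, at -32.5 against -59.6 and -90.1 for the other sham arrays, and it was the highest sham array for Il1b, S100a9, Clec4e, Ccl2 and H2-Aa among the genes below.

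Ranked by fitted change, the 12 largest rises held 5 chemokines or cytokines and 2 matrix proteins. For 5 of the 12 (Thbs4, Cxcl3, Cxcl5, Ppbp and Slurp1) the sham probes were not well above background, so their fitted change is no bound and their rank is not settled. Thbs4, a thrombospondin of the pericellular matrix, stood at 2.69, 2.32 and 1.54 on the CaCl2 arrays of replicates 1 to 3 and at -5.92, -5.14 and -4.95 on the sham arrays, where it was not well above background. It rose at least 38.9-fold (adjusted p = 1.82e-04), with a probe on mm9 chromosome 13 from 93521565 to 93521624. The 3 CaCl2 arrays lay together and far from all sham arrays. Prg4, the lubricating proteoglycan lubricin of joint surfaces, had levels of 5.24, 4.18 and 4.82 after CaCl2 and -0.77, -1.57 and -1.78 after sham, a rise of 6.12 ± 0.61 (adjusted p = 9.74e-06; mm9 chromosome 1, 152297067 to 152297126). The groups were separated by more than any spread within them. Anxa8, an annexin, rose by 5.39 ± 0.85 (4.01 at its other probe), with CaCl2 levels of 5.42, 4.95 and 4.25 and sham levels of -0.40, -0.22 and -0.94. Slurp1, a small secreted Ly6-type protein, rose at least 21.8-fold.

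Il1b, the inflammatory cytokine interleukin 1 beta, was at 2.08, 3.03 and 2.60 after CaCl2 and at -2.10, -4.69 and -4.27 after sham, where 1 of 3 arrays was well above background. It rose by 6.25 ± 0.81 (adjusted p = 8.46e-05; mm9 chromosome 2, 129190347 to 129190406). Sham replicate 1 was the highest sham array and still lay more than 4 log2 units under the lowest CaCl2 array. Cxcl3 and Cxcl5, ligands of the neutrophil receptor Cxcr2, rose at least 24.6-fold and at least 13.1-fold, and Ppbp, a platelet and myeloid chemokine of the same family, at least 23.4-fold. None of these 3 was well above background on a sham array, and each was so on all CaCl2 arrays. Cxcl14 rose by 5.43 ± 0.87 and the stefin Stfa3, an inhibitor of cysteine proteases, by 5.78 ± 0.82.

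S100a9, the partner of S100a8 in calprotectin, had levels of 3.87, 3.61 and 4.36 after CaCl2 and 0.35, -1.80 and -5.06 after sham. The CaCl2 arrays agreed closely and the sham arrays did not, so that the rise of 6.12 had an SE of 1.64 (adjusted p = 0.0253). Clec4e codes for Mincle, a lectin that signals through the Fc receptor gamma chain and Syk. It was at 1.67, 0.80 and 1.78 after CaCl2 and at -1.62, -5.20 and -5.03 after sham, where 1 array was well above background, and rose by 5.36 ± 1.0 (adjusted p = 0.00203).

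**Figure D1:**
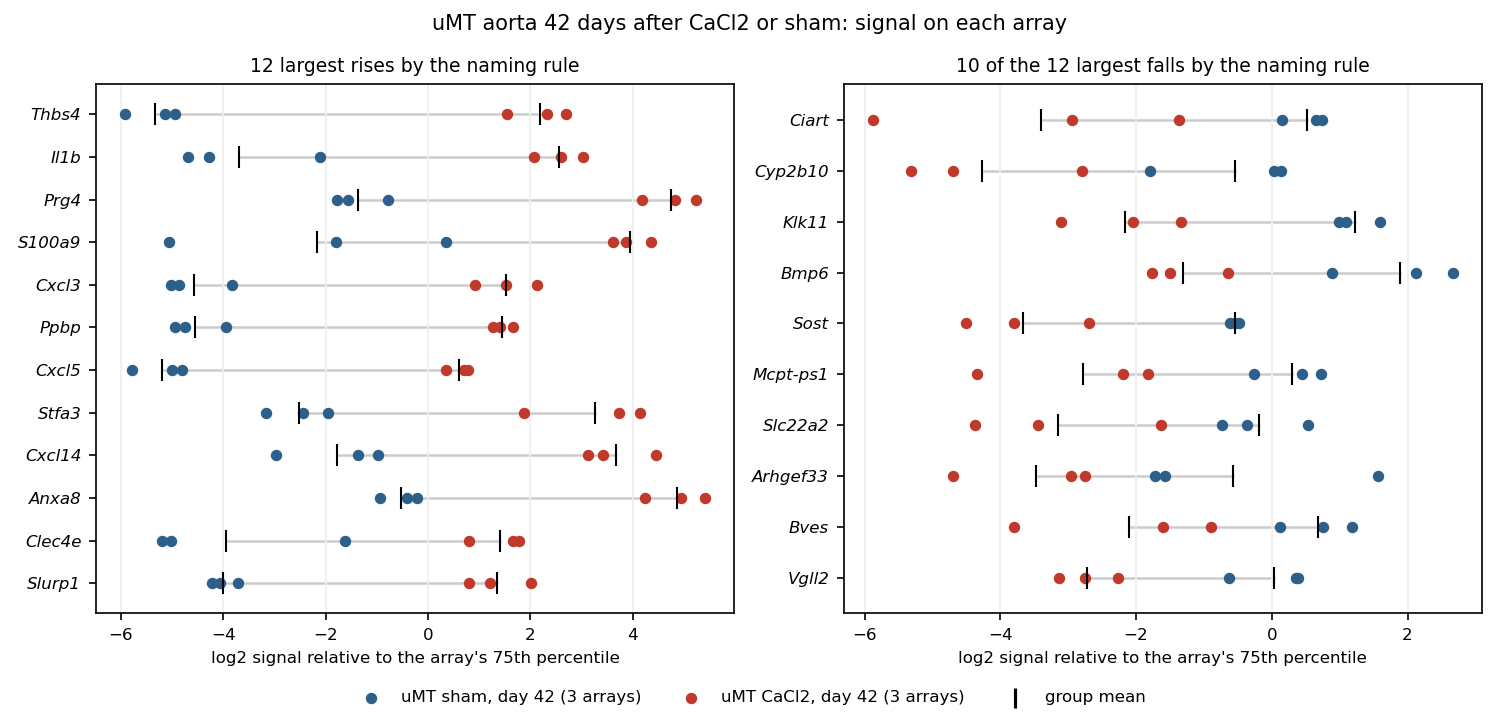
Level (log2, against the 75th percentile of the array) of the 12 largest rises by fitted change (left) and 10 of the 12 largest falls (right) in uMT aorta at day 42, with each point 1 array and black ticks the group means. No gene shown has overlapping groups, which the choice of genes required. Sham points spread most in S100a9 (-5.06 to 0.35) and CaCl2 points most in Ciart (-5.88 to -1.37).

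The largest falls, of which 10 are described, were smaller and held no chemokine or collagen gene. Ciart, a repressor of the circadian clock, stood at -1.37, -2.94 and -5.88 after CaCl2 and at 0.15, 0.65 and 0.74 after sham, and fell by 3.91 ± 0.69 (adjusted p = 0.00119). The sham arrays lay close together and the CaCl2 arrays did not. Sost codes for sclerostin, a secreted inhibitor of Wnt signalling that bone and aortic smooth muscle make. Its levels were -4.51, -3.80 and -2.69 after CaCl2, where 1 array was well above background, and -0.49, -0.54 and -0.61 after sham, a fall of 3.12 ± 0.76 (adjusted p = 0.0145; mm9 chromosome 11, 101824067 to 101824126). Bmp6, a bone morphogenetic protein, fell by 3.20 ± 0.67 (adjusted p = 0.00532), with CaCl2 levels of -1.5, -1.77 and -0.64 and sham levels of 2.13, 2.67 and 0.88. The groups did not overlap in any of these 3 genes.

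Among the other falls were the cytochrome Cyp2b10 (-3.72 ± 0.89), which oxidises foreign compounds, and the organic cation transporter Slc22a2 (-2.96 ± 0.83). Klk11, a kallikrein-type protease, fell by 3.40 ± 0.73 and the mast cell protease pseudogene Mcpt-ps1 by 3.09 ± 0.75. Bves, a membrane protein of muscle and epithelium, fell by 2.78 ± 0.71, and Vgll2, a muscle cofactor of TEAD transcription factors, by 2.76 ± 0.72. Arhgef33, named as a guanine nucleotide exchange factor, fell by 2.90 ± 0.80.

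Genes of Fc receptor and Syk signalling rose in 14 of 17 tested (6 to 16 leaving 1 out, 16 without the lone WT array), with a median change of 2.41, and 16 of 17 did not overlap between the groups. Over all genes 4.62% were called higher and 13.8% had CaCl2 arrays all above the sham arrays. Syk itself had levels of 3.08, 3.04 and 2.87 after CaCl2 and 1.67, 1.0 and 0.56 after sham. All 3 CaCl2 arrays were higher, and the rise was 1.93 ± 0.46 (adjusted p = 0.0123; mm9 chromosome 13, 52744088 to 52744147), against 0.52 at its other probe.

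Of the Src-family kinases that start Fc receptor signalling, Fgr rose by 3.88 ± 0.64 and Lyn by 2.35 ± 0.47, and 1 of 3 sham arrays was well above background for each. Downstream, the exchange factor Vav1 rose by 2.71 ± 0.50, the adaptor Lat2 by 3.29 ± 0.66 and the lipid kinase subunit Pik3cd by 1.73 ± 0.29. Pik3cd showed it plainly, at 1.76, 2.0 and 1.45 after CaCl2 against 0.28, -0.19 and -0.05 after sham. Receptors were chosen for mention after their values were seen. The activating receptors Fcgr4 and Fcgr1 rose by 2.11 ± 0.54 and 1.68 ± 0.46, the inhibitory receptor Fcgr2b by 2.92 ± 0.75 and the shared gamma chain Fcer1g by 2.41 ± 0.72.

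Plcg2, a phospholipase downstream of Syk, differed by 0.05 ± 0.41 (adjusted p = 0.978), and Fcgr3 (2.68 ± 0.83) and Tyrobp (2.36 ± 0.77) did not pass the test (adjusted p = 0.0553 and 0.0707). Of this list 6 members rose without sham replicate 3, 7 without CaCl2 replicate 1 and 8 without sham replicate 2. Lectins of myeloid cells, which can use the same kinase, rose in 5 of 9 (3 to 7 leaving 1 out, 6 without the lone WT array). Clec4n (dectin-2) rose by 4.77 ± 0.70, from sham levels of 1.82, -0.32 and -0.73 to CaCl2 levels of 5.68, 4.47 and 4.94, and Clec4d by 3.23 ± 0.86. Of the phagocyte NADPH oxidase, which makes superoxide, 6 of 8 genes rose (1 to 6 leaving 1 out, 6 without the lone WT array), led by the cytosolic subunit Ncf1 (2.80 ± 0.43) and with the membrane subunit Cybb at 2.57 ± 0.59. Nox4 and Nox1, the catalytic subunits used by vascular cells, had changes of -1.70 ± 0.62 and -0.87 ± 0.68 and did not pass the test.

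Macrophage genes rose in 11 of 20 tested (4 to 15 leaving 1 out, 17 without the lone WT array) and fell in 0, with a median change of 2.18. Cx3cr1, the fractalkine receptor of monocytes and macrophages, rose by 4.59 ± 0.88, with CaCl2 levels of 3.60, 3.70 and 3.43 and sham levels of 1.13, -2.78 and -1.40. The CaCl2 arrays were nearly equal and sham replicate 1 was the nearest sham array. Cd14, a co-receptor for bacterial lipopolysaccharide, rose by 3.65 ± 0.59, Ccr2, the monocyte receptor for Ccl2, by 3.0 ± 0.50, and the scavenger receptor Msr1 by 2.49 ± 0.46. Summed over the list, signal ran from 903 to 1370 times the 75th percentile after CaCl2 and from 606 to 765 after sham. Not every myeloid group described here moved the same way, as the mast cell list had a median of -1.42. The part of the macrophage list in the other groups was not tested.

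Genes that mark recruited and lipid-laden macrophages rose in 5 of 15 (0 to 6 leaving 1 out, 12 without the lone WT array). Spp1, the matricellular protein osteopontin, stood at 5.73, 4.68 and 5.22 after CaCl2 and at 0.73, 2.81 and -3.82 after sham. The sham arrays spread over more than 6 log2 units, all below the CaCl2 arrays, and the rise was 5.30 ± 1.17 (adjusted p = 0.00749). Trem2, a receptor of lipid-handling macrophages, rose by 2.27 ± 0.67. Of 13 genes of resident adventitial macrophages, 1 rose (0 to 4 leaving 1 out, 2 without the lone WT array) and 2 fell (0 to 2 leaving 1 out, 2 without the lone WT array). Of all genes 4.62% were called higher and 1.71% lower. Pf4 rose by 2.46 ± 0.67, while the lectin Cd209f fell by 2.10 ± 0.61 and the carbonyl reductase Cbr2 by 1.93 ± 0.59. Lysosomal and lipid-handling genes rose in 6 of 14 (1 to 6 leaving 1 out, 13 without the lone WT array) with a median of 1.34, such as Lamp2 by 1.36 ± 0.23 and Npc2, which moves cholesterol out of lysosomes, by 1.60 ± 0.34.

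Among 13 osteoclast genes 2 rose (0 to 2 leaving 1 out, 5 without the lone WT array). Dcstamp, needed for the fusion of osteoclasts and giant cells, rose by 3.62 ± 0.80, from sham levels of -0.25, -0.72 and -1.64 to CaCl2 levels of 3.34, 2.54 and 2.36. Tnfsf11, the osteoclast-inducing cytokine RANKL, rose at least 2.54-fold. Acp5 and Ctsk, the osteoclast phosphatase and collagenase, had changes of 2.28 ± 0.74 and 2.13 ± 0.70 (adjusted p = 0.0696 and 0.0707).

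Chemokine and cytokine genes rose in 15 of 25 (8 to 18 leaving 1 out, 17 without the lone WT array), with a median change of 2.39, and fell in 0. Ccl2, which draws monocytes, had levels of 2.88, 3.47 and 3.01 after CaCl2 and 0.87, -1.96 and -2.58 after sham, a rise of 4.34 ± 0.84 (adjusted p = 0.00279; mm9 chromosome 11, 81850650 to 81850709). The groups did not overlap, with sham replicate 1 the nearest. Ccl4 rose by 3.40 ± 0.62. Il6 was at -0.93, 1.1 and -0.30 after CaCl2 and at -3.08, -3.65 and -4.94 after sham, where 1 array was well above background, a rise of 3.85 ± 1.07 (adjusted p = 0.0305). Csf1, a macrophage growth factor, differed by -0.02 ± 0.20 (adjusted p = 0.980), a member chosen for mention after its value was seen.

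The promoters of 2 of these genes are shown for a site that the transcription factor family NF-kappaB binds. In the 250 bases before the start (RefSeq, GRCm38.p6), read on both strands, a kappaB site was found in 7 of 20 chemokine and cytokine genes with a promoter there, Cxcl3 and Ppbp included (35%), and in 8.23% of all 27025 genes. Of the 7, Il6, Cxcl3 and Ccl9 rose, and Csf1, Cxcl1, Cxcl10 and Tgfb1 did not pass the test. The matches, in capitals below, are in Il6 (chromosome 5, 30012864 to 30013113, plus strand) and in Cxcl3 (chromosome 5, 90785851 to 90786100, plus strand), where 2 matches overlap. A match is a run of letters and does not show that a factor binds.
Il6: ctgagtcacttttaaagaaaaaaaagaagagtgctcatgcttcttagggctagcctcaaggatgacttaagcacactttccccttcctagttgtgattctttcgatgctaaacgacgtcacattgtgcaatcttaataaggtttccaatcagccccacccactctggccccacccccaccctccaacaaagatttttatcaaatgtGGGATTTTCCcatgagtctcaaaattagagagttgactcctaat
Cxcl3: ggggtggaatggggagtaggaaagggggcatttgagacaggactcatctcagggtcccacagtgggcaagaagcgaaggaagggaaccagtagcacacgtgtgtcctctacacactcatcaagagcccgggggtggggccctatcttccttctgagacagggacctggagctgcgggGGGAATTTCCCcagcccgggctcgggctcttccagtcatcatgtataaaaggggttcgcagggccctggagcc

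Of 12 genes of calgranulins, stefins and acute phase proteins 7 rose (3 to 5 leaving 1 out, 7 without the lone WT array). Saa3, a serum amyloid A made by macrophages and fat, rose by 5.14 ± 0.96, with CaCl2 levels of 2.25, 1.30 and 2.46 and sham levels of 0.03, -4.61 and -4.83. Sham replicate 1 stood well above the other sham arrays. Lcn2, the iron-binding lipocalin of neutrophils and epithelium, rose by 1.66 ± 0.43. Neutrophil genes rose in 4 of 11 (0 to 2 leaving 1 out, 4 without the lone WT array), S100a8 (4.57 ± 1.13), S100a9, Retnlg (at least 1.94-fold) and Mpo, whose probe was not well above background on any of the 6 arrays. Ly6g, the surface protein that defines mouse neutrophils, differed by -0.04 ± 0.77 (adjusted p = 0.990), named after its value was seen, and was well above background on all 6 arrays. The neutrophil list summed to between 297 and 476 after CaCl2 and between 261 and 450 after sham, so these sums overlapped. The mean level of its 11 members did not, at 0.19, -0.15 and -0.18 after CaCl2 and -1.76, -1.5 and -2.24 after sham. Of the 11, 7 were higher on every CaCl2 array (13.8% of all genes were) and 0 were lower on every one.

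Mast cell genes fell in 2 of 8 (0 to 2 leaving 1 out, 5 without the lone WT array), and in 0 without any 1 of sham replicates 2 and 3 and CaCl2 replicates 1 and 2. The proteases Mcpt4 and Cma1 (chymase) fell by 2.47 ± 0.67 and 2.54 ± 0.73. Mcpt4 was at -0.57, 0.98 and 1.47 after CaCl2 and at 2.53, 3.20 and 3.55 after sham, with no overlap. Hdc and Tpsb2, histidine decarboxylase and a tryptase, had changes of 0.73 ± 0.64 and 0.28 ± 0.46 (-2.19 at the other Tpsb2 probe), and were named after their values were seen.

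Dendritic cell and MHC class II genes rose in 9 of 13 (3 to 11 leaving 1 out, 11 without the lone WT array). H2-Aa, the class II alpha chain, had levels of 4.53, 4.53 and 4.42 after CaCl2 and 3.60, 1.88 and 1.84 after sham, a rise of 2.06 ± 0.36 (adjusted p = 0.00116). Sham replicate 1 again lay nearest to the CaCl2 arrays. H2-DMb1, which loads peptides on class II, rose by 1.77 ± 0.34 and Clec9a, a lectin of cross-presenting dendritic cells, by 1.76 ± 0.40. Flt3 rose by 1.93 ± 0.44 at its brightest probe, but its 3 probes ran from -0.23 to 1.93.

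T and NK cell genes rose in 10 of 19 (3 to 10 leaving 1 out, 11 without the lone WT array). Zap70, the Syk-family kinase of the T cell receptor, was at 0.83, 1.09 and 1.04 after CaCl2 and at -0.82, -2.56 and -2.47 after sham, a rise of 2.94 ± 0.44 (adjusted p = 2.80e-04). Icos, a co-stimulatory receptor, rose by 3.29 ± 0.53, Cd3g by 2.69 ± 0.62 and Foxp3, the factor of regulatory T cells, at least 1.76-fold with 2 of 3 CaCl2 arrays well above background. Cd3e and Cd4 differed by 0.11 ± 0.83 and 0.01 ± 0.42 (adjusted p = 0.978 and 0.996), and were named after their values were seen. Members of the list thus disagreed among themselves.

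Complement genes rose in 8 of 17 (3 to 9 leaving 1 out, 11 without the lone WT array). C3, the central component, rose by 2.49 ± 0.33, with CaCl2 levels of 9.15, 8.58 and 8.56 and sham levels of 7.12, 5.82 and 5.87 (adjusted p = 9.04e-05). C4b rose by 2.15 ± 0.30 and C5ar1, the receptor for the C5a fragment, by 3.11 ± 0.50. All 3 C1q chains, which macrophages make, rose, C1qa by 2.23 ± 0.56. Of 15 interferon-induced genes 0 passed limma's test, with a median change of 0.96, although 6 were higher at an unadjusted p under 0.05 and 3 passed without the lone WT array. Over all 23268 genes 2343 were higher at that unadjusted p.

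Of the genes that define B cells, some were detected and some not. Ms4a1 was well above background on 0 of 6 arrays, and so was Jchain, which links the units of secreted IgM and IgA, with levels of -3.86, -5.37 and -5.86 after CaCl2 and -5.97, -4.34 and -5.00 after sham. Cd79a, part of the B cell receptor complex, was well above background on 2 of 3 CaCl2 and 3 of 3 sham arrays and differed by -0.68 ± 0.39 (adjusted p = 0.372). Its partner chain Cd79b was so on 3 of 3 and 2 of 3, with a change of 1.33 (adjusted p = 0.318). Of 13 genes on the list 2 rose (0 to 2 leaving 1 out, 2 without the lone WT array), the adaptor Blnk by 2.41 ± 0.54 and the transcription factor Spib at least 2.05-fold, and myeloid cells express both. The plasma cell list had 1 of 9 genes that rose (0 to 1 leaving 1 out, 2 without the lone WT array), Irf4 (2.18 ± 0.48), which T cells and dendritic cells also express. Of 72 immunoglobulin features, listed after the data were seen, 0 passed the test with limma in either direction, with a median change of 0.01, and 54 were well above background on no CaCl2 array.

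**Figure D2:**
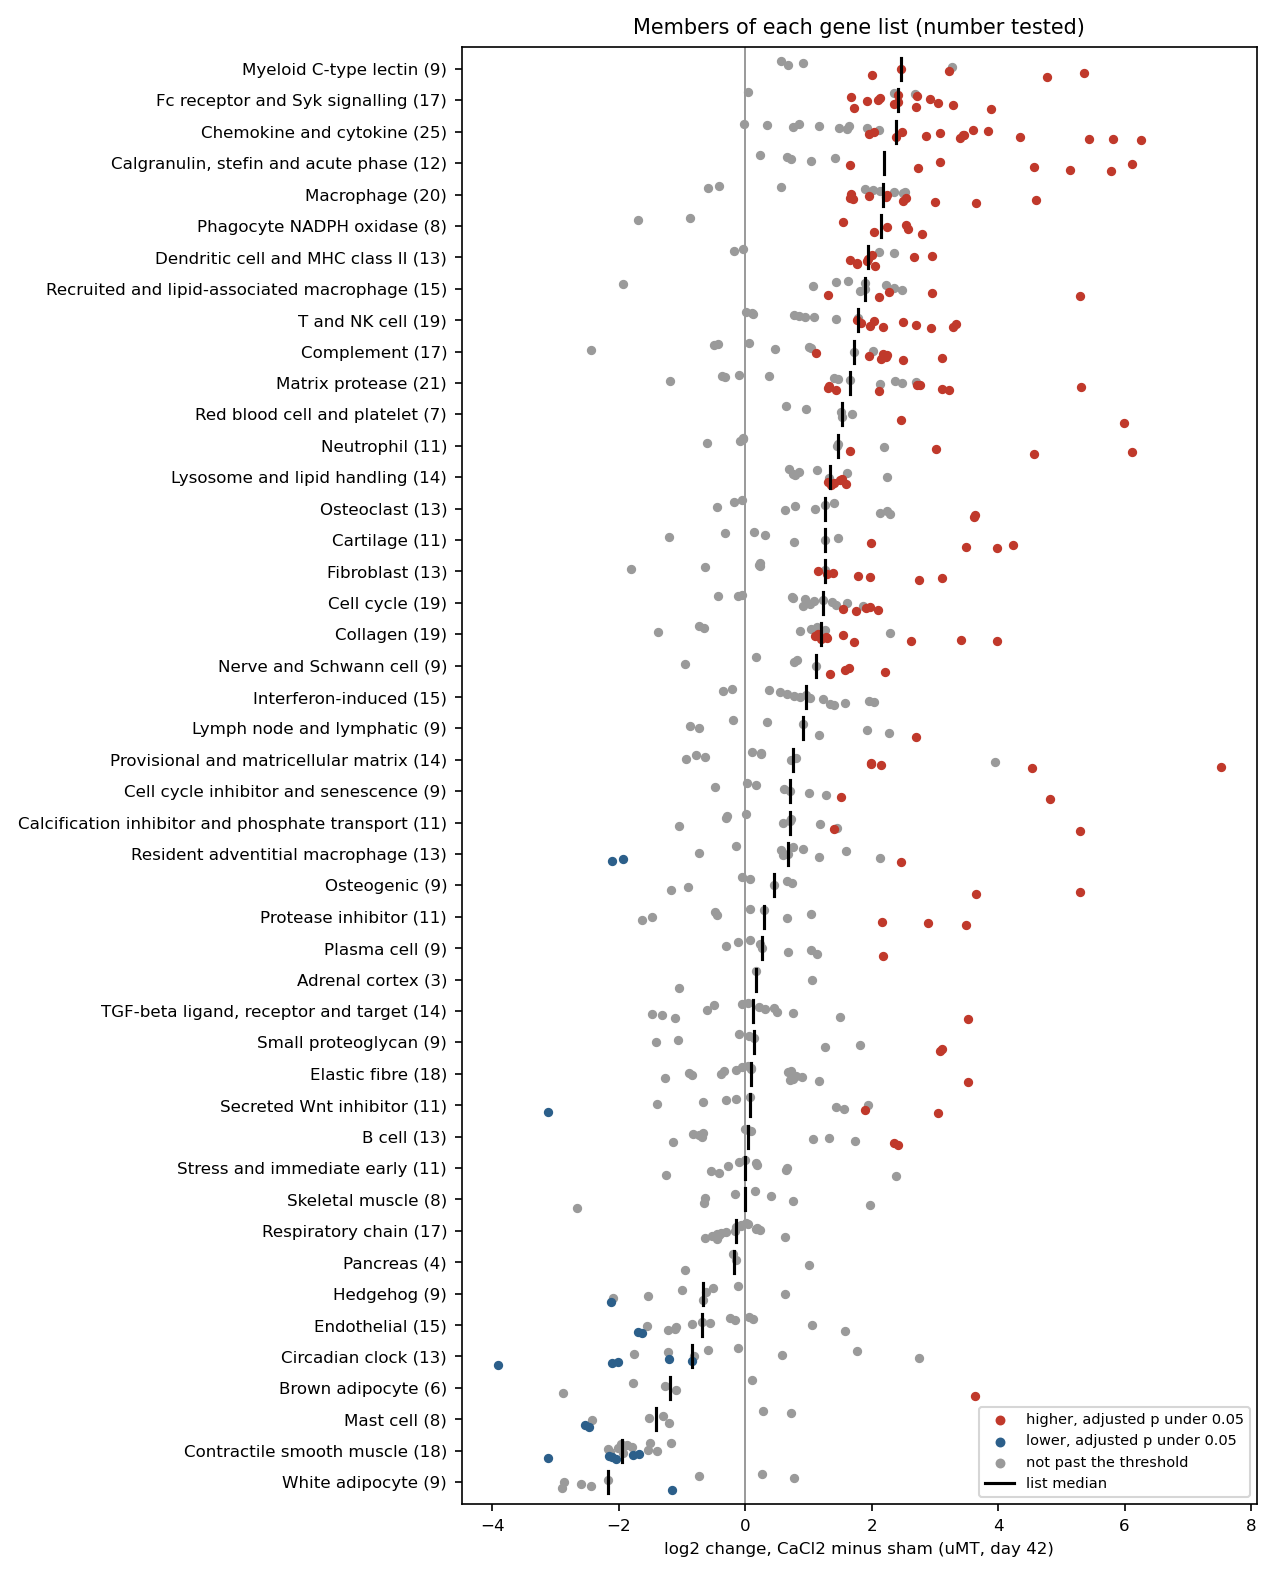
Log2 change between CaCl2 and sham in uMT aorta at day 42 for each tested member of 46 gene lists, ordered by the list median (black bar), with red and blue points past an adjusted p of 0.05 and grey points not. The lists of myeloid lectins, Fc receptor and Syk signalling and chemokines have the highest medians (2.47, 2.41 and 2.39), and contractile smooth muscle and white fat the lowest (-1.94 and -2.17).

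Contractile smooth muscle genes fell in 6 of 18 (0 to 10 leaving 1 out, 12 without the lone WT array), and all 18 had CaCl2 arrays below every sham array, against 12.8% of all genes. The median change was -1.94, and 1.71% of all genes were called lower. Acta2, smooth muscle actin, had levels of 7.55, 8.82 and 9.34 after CaCl2 and 9.90, 10.09 and 11.05 after sham. All CaCl2 arrays lay below all sham arrays, with replicate 1 the lowest, and the fall was 1.78 ± 0.53 (adjusted p = 0.0445). The tropomyosin Tpm2 fell by 2.05 ± 0.47 and the enteric-type smooth muscle actin Actg2 by 2.12 ± 0.58. The intermediate filament gene Des fell by 2.15 ± 0.61 and Mylk, the myosin light chain kinase, by 1.68 ± 0.51. The other gene of the list that fell was Sost, described above, which codes for a secreted protein and no part of the contractile apparatus. It is counted in the 6 and in the 18.

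Cnn1, Myh11 and Myocd, a calponin, the smooth muscle myosin and the cofactor that drives this programme, had changes of -1.94 ± 0.60, -2.14 ± 0.68 and -2.01 ± 0.67 without passing the test (adjusted p = 0.0546, 0.0635 and 0.0771). These 3 and Mylk were named after their values were seen. Of this list 0 fell without sham replicate 3 or CaCl2 replicate 1, 1 without CaCl2 replicate 2, 3 without sham replicate 2 and 10 without CaCl2 replicate 3. The list's signal summed to between 1090 and 2660 times the 75th percentile after CaCl2 and between 3930 and 7360 after sham. A CArG box, the site of serum response factor, was found in the promoter window of 1 of 14 of these genes (7.14%), and of 1.62% of all genes.

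Among endothelial genes 2 of 15 fell (0 to 2 leaving 1 out, 2 without the lone WT array), Vwf, von Willebrand factor, by 1.63 ± 0.41 (-0.51 at its other probe) and Pecam1, an adhesion molecule of endothelium, by 1.70 ± 0.48. Pecam1 was at 0.08, -0.33 and 0.30 after CaCl2 and at 1.78, 1.98 and 1.39 after sham. The list median was -0.69. Hedgehog genes had 1 of 9 that fell (0 to 2 leaving 1 out, 2 without the lone WT array), the ligand Ihh (at least 2.66-fold lower), which was well above background on all sham arrays and on 0 of 3 CaCl2 arrays.

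Collagen genes rose in 10 of 19 (5 to 10 leaving 1 out, 13 without the lone WT array). Col3a1, a fibrillar collagen of the vessel wall, had levels of 9.42, 9.10 and 8.60 after CaCl2 and 7.42, 7.02 and 7.52 after sham, a rise of 1.72 ± 0.23 (adjusted p = 9.04e-05). Col14a1, a fibril-associated collagen, rose by 2.62 ± 0.44, Col5a3 by 3.41 ± 0.62, and Col11a1, a collagen of cartilage, at least 3.22-fold. The basement membrane collagens Col4a1 and Col4a2 had changes of -0.66 ± 0.42 and -0.73 ± 0.49 and did not pass the test. Fibroblast genes rose in 7 of 13 (2 to 7 leaving 1 out, 8 without the lone WT array). Fap, a surface protease of activated fibroblasts, rose by 2.74 ± 0.28, from sham levels of 2.43, 1.95 and 2.09 to CaCl2 levels of 5.20, 5.07 and 4.42 (adjusted p = 9.74e-06), and the small proteoglycan Lum, lumican, by 3.11 ± 0.49. Fap was close to equal within each group.

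Matricellular genes rose in 5 of 14 (3 to 5 leaving 1 out, 7 without the lone WT array), among them Thbs4, Cilp, a cartilage matrix protein (4.53 ± 0.62), and Cthrc1 (2.14 ± 0.48). Postn and Tnc, matricellular genes named after their values were seen, had changes of -0.64 ± 0.43 and 0.11 ± 0.53. Small proteoglycans rose in 2 of 9 (2 to 4 leaving 1 out, 4 without the lone WT array), Lum and Epyc (at least 3.52-fold). Of 18 elastic fibre genes 1 rose (1 to 2 leaving 1 out), against 4.62% of all genes. It was Ltbp2, which binds microfibrils and rose by 3.53 ± 0.40, with CaCl2 levels of 6.84, 6.62 and 5.91 and sham levels of 3.25, 2.41 and 3.12. Without the lone WT array 6 elastic fibre genes rose and 1 fell, against 8.87% and 6.15% of all genes. Eln, elastin, differed by -0.89 ± 0.74 (adjusted p = 0.604), at 1.14, 2.51 and 2.39 after CaCl2 and 2.80, 2.73 and 3.18 after sham. In these 3 against 3 arrays Eln was lower on every CaCl2 array, and the difference did not exceed the pooled spread. In TGF-beta signalling 1 of 14 genes rose, Ltbp2 again, and without the lone WT array 2 rose and 3 fell. These counts stand against the same shares of all genes.

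Matrix protease genes rose in 9 of 21 (4 to 10 leaving 1 out, 14 without the lone WT array) and fell in 0, with a median change of 1.66. Mmp14, a membrane-bound collagenase that activates Mmp2, rose by 2.11 ± 0.33, with CaCl2 levels of 2.0, 2.41 and 1.81 and sham levels of 0.01, 0.05 and -0.17 (adjusted p = 4.93e-04). Mmp3, stromelysin, rose by 3.23 ± 0.52 and Mmp19 by 3.11 ± 0.71. Mmp13, a collagenase of bone and cartilage, rose at least 29.3-fold (named after its value was seen), at 2.01, 1.22 and 2.10 after CaCl2 against -4.06, -3.56 and -2.99 after sham, where it was not well above background. The cysteine protease Ctsb rose by 1.43 ± 0.30.

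Mmp2, a gelatinase of mesenchymal cells, had levels of 3.57, 3.78 and 3.41 after CaCl2 and 2.24, 0.58 and 0.82 after sham. The groups did not overlap, and the change of 2.37 ± 0.87 gave an adjusted p of 0.114, and of 7.28e-05 without the lone WT array. Mmp9, the gelatinase of leukocytes, differed by 1.40 ± 1.36 (adjusted p = 0.679), and was well above background on 2 of 3 CaCl2 and 1 of 3 sham arrays. Of 11 protease inhibitors 3 rose (2 to 3 leaving 1 out, 4 without the lone WT array): Timp1, an inhibitor of metalloproteases, by 3.48 ± 0.42, the cystatin Cst6 by 2.89 ± 0.44 and the serpin Serpina3n by 2.17 ± 0.64. Timp1 was at 6.63, 6.17 and 6.24 after CaCl2 and at 3.56, 2.07 and 2.97 after sham.

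Cartilage genes rose in 4 of 11 (2 to 4 leaving 1 out, 4 without the lone WT array). Sox9, the transcription factor of chondrocytes, rose at least 3.33-fold, Col2a1, the main collagen of cartilage, at least 7.52-fold and Col11a1 as above, and none of these 3 was well above background on a sham array. Comp, an oligomeric matrix protein, rose by 1.99 ± 0.56. Acan, aggrecan, had a change of 1.46 ± 0.78 and did not pass the test. Osteogenic genes rose in 2 of 9 (1 to 2 leaving 1 out, 2 without the lone WT array), Spp1 and Ibsp, the bone sialoprotein, which rose by 3.65 ± 0.77. Runx2 and Bglap2, a factor and a product of osteoblasts, had changes of 0.74 ± 0.67 and 0.07 ± 0.60 and did not pass the test. Among 11 calcification inhibitors and phosphate transporters, Spp1 and the phosphate carrier Slc20a1 (1.40 ± 0.37) rose (0 to 2 leaving 1 out, 4 without the lone WT array). Secreted inhibitors of Wnt rose in 2 of 11 (1 to 2 leaving 1 out, 3 without the lone WT array), Sfrp4 by 3.06 ± 0.42 and Sfrp5 by 1.89 ± 0.51, and Sost fell.

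Cell cycle genes rose in 5 of 19 (0 to 6 leaving 1 out, 7 without the lone WT array), with 0 without CaCl2 replicate 1 or 2 and 1 without sham replicate 2 or 3. Among them were Aurka (1.75 ± 0.43), Birc5 (2.09 ± 0.53) and Mki67 (1.97 ± 0.56), a kinase, a survivin and a proliferation marker. Among 9 inhibitors of the cycle, 2 rose (2 each time leaving 1 out, 5 without the lone WT array). Cdkn2a, which codes for p16 and p19Arf, was at 0.56, 0.03 and -0.78 after CaCl2 and at -5.94, -4.72 and -3.97 after sham, and rose at least 8.19-fold (adjusted p = 4.60e-04). Its neighbour Cdkn2b rose by 1.52 ± 0.30. Both groups of arrays were compact for Cdkn2b, at -0.17, -0.10 and -0.32 against -1.77, -1.75 and -1.61.

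The circadian clock list had 5 of 13 genes that fell (1 to 4 leaving 1 out, 5 without the lone WT array) and 0 that rose. Besides Ciart these were Dbp and Tef, PAR bZIP transcription factors driven by the clock, and the repressors Per2 and Cry2. Dbp had levels of 5.21, 4.92 and 3.73 after CaCl2 and 6.40, 6.74 and 7.03 after sham, a fall of 2.11 ± 0.49 (adjusted p = 0.00992). The groups did not overlap, and CaCl2 replicate 3 was the lowest. Tef fell by 1.21 ± 0.37, Per2 by 2.01 ± 0.58 and Cry2 by 0.85 ± 0.26.

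Arntl, the activator of the clock known as Bmal1, was named after its value was seen. It was at -2.27, 0.05 and 0.75 after CaCl2 and at -2.17, -4.06 and -3.50 after sham, a change of 2.75 ± 0.84 (adjusted p = 0.0520). CaCl2 replicate 1, which had the highest Per2 and Ciart of its group, had the lowest Arntl. Of the list 1 fell without sham replicate 3 or CaCl2 replicate 3 and 2 without sham replicate 2 or CaCl2 replicate 2. The labels do not give the time of day of sampling.

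The proteins of Arntl and Clock bind E-boxes, and the promoters of the 2 clock genes with the E-box CACGTG that fell are shown. In the 250 bases before the start, on both strands, this E-box was found in 4 of 12 clock genes with a promoter in the RefSeq table (33.3%), Ciart, Tef and 2 that did not pass the test, Per1 and Cry1, and in 6.86% of all 27025 genes. Ciart (GRCm38.p6 chromosome 3, 95882229 to 95882478, minus strand) holds 3, in capitals, and Tef (chromosome 15, plus strand) holds 1 in each of its 2 listed promoters, of which the one at 81811164 to 81811413 is shown.
Ciart: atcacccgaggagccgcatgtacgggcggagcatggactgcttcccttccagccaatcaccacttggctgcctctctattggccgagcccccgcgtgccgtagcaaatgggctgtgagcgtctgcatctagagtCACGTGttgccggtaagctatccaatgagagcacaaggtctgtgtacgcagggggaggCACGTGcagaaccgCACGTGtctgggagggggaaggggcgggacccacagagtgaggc
Tef: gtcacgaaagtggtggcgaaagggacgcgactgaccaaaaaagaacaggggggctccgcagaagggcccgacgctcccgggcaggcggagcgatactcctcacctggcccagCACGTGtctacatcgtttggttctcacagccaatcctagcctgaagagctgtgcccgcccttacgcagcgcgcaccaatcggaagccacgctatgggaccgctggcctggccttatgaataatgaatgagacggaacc

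**Figure D3:**
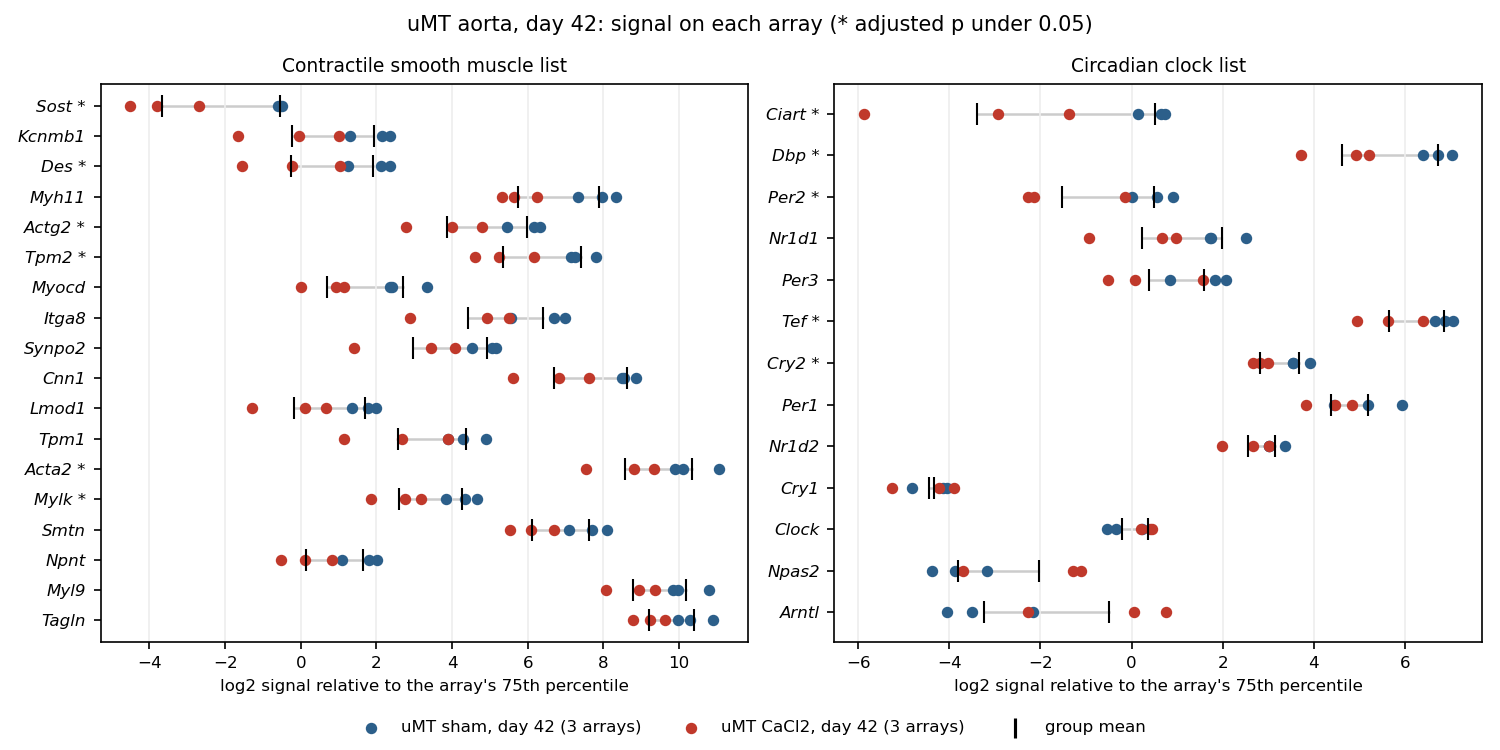
Level (log2, against the 75th percentile of the array) for the 18 contractile smooth muscle genes (left) and the 13 circadian clock genes (right) on the 3 CaCl2 (red) and 3 sham arrays (blue), with group means as ticks and an asterisk for an adjusted p under 0.05. CaCl2 lies below sham in all 18 genes of the muscle list, Sost among them, while clock genes go down (Ciart, -3.91) and up (Arntl, 2.75, not past the test).

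Tissues around the aorta were checked with their own lists. White fat genes fell in 1 of 9 (0 to 3 leaving 1 out, 1 without the lone WT array), Pnpla2, a lipase (-1.17 ± 0.35), with a list median of -2.17. Adipoq, adiponectin, was at -0.29, -2.87 and 1.97 after CaCl2 and at 0.81, 4.47 and 2.12 after sham, so the groups overlapped, and the list's summed signal ran from 41.5 to 129 after CaCl2 and from 81.5 to 484 after sham. Nerve and Schwann cell genes rose in 4 of 9 (1 to 3 leaving 1 out, 6 without the lone WT array) with a median of 1.11, with Sox10 at 1.35 ± 0.32 and Mbp, myelin basic protein, at 2.21 ± 0.55 (0.78 at the lowest of its 3 probes). Their sum was 40.4 to 48.4 after CaCl2 and 25 to 32.8 after sham. The lymph node and lymphatic list had 1 of 9 that rose (1 to 3 leaving 1 out, 3 without the lone WT array), Pdpn (2.70 ± 0.38), which fibroblasts and macrophages also express. Its sum was 45 to 69.3 after CaCl2 and 11.7 to 21.6 after sham, without overlap, and its part in the lymphoid genes above was not tested. The platelet and red cell list had Ppbp and Pf4 as 2 of 7 that rose (1 to 2 leaving 1 out, 2 without the lone WT array), while the globin genes Hba-a1 and Hbb-bs differed by 0.97 ± 1.08 and 0.64 ± 1.26. Its sum was 97.7 to 275 after CaCl2 and 33.7 to 72.8 after sham, also without overlap.

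Skeletal muscle (8 genes), pancreas (4), adrenal cortex (3), Y chromosome (4), respiratory chain (17) and immediate early and stress genes (11) held 0 that passed limma's test. Xist, listed with the Y chromosome genes, was not tested. At an unadjusted p under 0.05 they held 3, 2, 0, 0, 0 and 1, against 4382 of all 23268 genes. Without the lone WT array 2 skeletal muscle, 2 respiratory chain and 1 stress gene passed. The list medians ran from -0.17 to 0.18. Acta1, an actin of skeletal muscle, had a change of -2.67 ± 0.84 (adjusted p = 0.058), and Ckm and Myh4 were well above background on 0 of 6 arrays. Of the brown fat list 1 of 6 rose, Dio2, while Ucp1, its defining gene, was well above background on 0 of 6.

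Whether the response at day 42 differed from that at day 7 was tested as the difference between both CaCl2 effects in uMT mice, in which an additive slide effect cancels because the same slides held both times. It was larger at day 42 for 10 genes (0.043%) and smaller for 0 (664 at an unadjusted p under 0.05, in limma), and for 111 and 16 without the lone WT array. Among the larger were Dio2 (by 3.50 ± 0.63), which activates thyroid hormone, Hc, complement C5 (2.87 ± 0.47), H2-Aa (2.83 ± 0.51), Ces2e, a carboxylesterase (3.0 ± 0.52), and C3 (2.58 ± 0.46), each with an adjusted p between 0.0336 and 0.0377. In the fit of the uMT arrays alone no gene passed (0 higher), and 0 to 173 were higher when 1 of the 12 arrays was left out. The count was 173 without sham day 42 replicate 1, 90 without CaCl2 day 7 replicate 1, 7 without CaCl2 day 42 replicate 3 and 6 without CaCl2 day 7 replicate 2, and it was 0 or 1 without any of the 8 others.

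Dio2 had levels of 1.15, 2.44 and 0.24 after CaCl2 and -1.75, -2.95 and -2.37 after sham at day 42, a rise of 3.63 ± 0.45 (adjusted p = 5.20e-05; mm9 chromosome 12, 91963235 to 91963294). The mean of the day 42 sham arrays, -2.36 ± 0.60 (SD), lay below the uMT groups before the operation (-0.27 ± 0.41), after sham at day 7 (0.04 ± 0.13) and after CaCl2 at day 7 (0.18 ± 0.76). The day 42 sham arrays were thus the low ones, and the CaCl2 arrays of day 42, with a mean of 1.28 ± 1.11, overlapped those of CaCl2 at day 7. Ces2e was likewise lowest there, with -4.27 ± 0.66 in the day 42 sham group, -1.94 ± 0.18 after sham at day 7 and -2.12 ± 0.38 after CaCl2 at day 42.

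C3 differed in the other way, and Hc in both. Hc was at -0.52 ± 0.53 after CaCl2 at day 42, above the means before the operation (-3.29 ± 0.65) and after CaCl2 at day 7 (-1.98 ± 0.28), while its sham group of day 42 (-3.52 ± 0.47) lay below that of day 7 (-2.11 ± 0.19). C3 was at 8.76 ± 0.34 after CaCl2 at day 42 and at 6.65 ± 0.40 after CaCl2 at day 7, while its 3 other uMT groups had means between 6.2 and 6.74. For both genes the CaCl2 group of day 42 had the highest mean of the uMT groups, as it did for Dio2 and H2-Aa. For Hc and H2-Aa the sham group of day 42 also had the lowest.

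Some of the genes that led at day 42 also differed between CaCl2 and sham at day 7. At day 7 too the CaCl2 arrays lay on slide 5 and the sham arrays on slide 4. Slide and treatment therefore cannot be told apart at either time, and a difference between the slides would appear at both. By limma's test Il1b (3.36 ± 0.81, adjusted p = 0.0484), Stfa3 (3.35 ± 0.82, adjusted p = 0.0496) and Cdkn2a (3.49 ± 0.75, adjusted p = 0.0307) were higher at day 7. Sost (-3.93 ± 0.76, adjusted p = 0.0206) and Dbp (-2.22 ± 0.49, adjusted p = 0.0330) were lower. Prg4 and Ppbp had day 7 changes of 1.92 ± 0.61 and -0.02 ± 1.24 and did not pass the test then. The difference between the times did not pass for Prg4 (4.20 ± 0.87, adjusted p = 0.0764), Thbs4 (4.39 ± 1.5, adjusted p = 0.396) or Spp1 (3.92 ± 1.66, adjusted p = 0.550).

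The same comparison in WT mice at day 42, which shares no array with it, gave 1581 genes higher (6.79%) and 836 lower (3.59%). The lone WT array is a sham array of this WT comparison and enters all WT changes below, which are given only with it. The WT sham arrays lay on slides 1, 2 and 3 and the WT CaCl2 arrays on slide 3. Of the genes that rose in uMT mice 734 rose in WT mice too, 68.3% of the uMT and 46.4% of the WT genes. Of those that fell 138 did, 34.7% and 16.5%. The WT change had the same sign for 1061 of the 1075 and 382 of the 398, and 2 of the 1075 fell in WT mice by the test. Syk changed by 1.92 ± 0.46 in WT mice, so that the difference between the lines was 0.01 ± 0.65.

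The difference between the uMT and the WT response passed the test for 3 genes higher in uMT (0.0129%) and 22 lower (0.0946%), and for 8 and 96 without the lone WT array. In the fit of the 4 groups alone 0 passed in either direction (182 and 207 at an unadjusted p under 0.05), and so did 0 with slide as a random block. Leaving out 1 array gave 0 to 8 higher and 4 to 96 lower genes, the fewest without WT CaCl2 replicate 3. Jchain was the named gene with the largest difference. It was not well above background on the 6 uMT arrays, while it changed by 9.19 ± 1.02 in WT mice, a difference between the lines of -9.12 ± 1.44 (adjusted p = 0.00796). With both uMT groups at background, that difference is a fitted value and no bound. Of the 22, 14 are described in the files as immunoglobulin chains. Of all 22, 10 probes lie on mm9 chromosome 12 between 114498348 and 117238485, 8 on chromosome 6 between 67892237 and 70676751 and 2 on chromosome 16 between 19061905 and 19085170, on the chromosomes of the heavy, kappa and lambda chain loci. Among the 72 immunoglobulin features 58 rose in WT mice, with a median change of 4.03. Of the 72, 70 were well above background on all WT CaCl2 arrays of day 42, and 10 on all uMT CaCl2 arrays. A probe was tested only if this held in at least 1 group, which favours features that are high in WT mice after CaCl2. The 58 of 72, the median and the 14 of the 22 thus follow in part from that filter.

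Dio2 rose in uMT mice and differed by 0.06 ± 0.45 in WT mice, a difference of 3.58 ± 0.63 (adjusted p = 0.0176). Both WT groups, at -0.16 ± 0.15 and -0.10 ± 0.22, lay between the uMT sham and CaCl2 groups. Faim2, an inhibitor of Fas-driven cell death known from neurons, had levels of -1.23, -1.02 and -1.77 after CaCl2 and -2.99, -3.81 and -2.02 after sham in uMT mice, a rise of 1.60 ± 0.39. In WT mice it fell (-1.42 ± 0.39, adjusted p = 0.0197), and the difference was 3.02 ± 0.55 (adjusted p = 0.0192). Ciart, which fell in uMT mice, changed by 0.52 ± 0.69 in WT mice, and the difference of -4.43 ± 0.97 did not pass (adjusted p = 0.0813). Dbp, at 0.32 in WT mice, was not shown to differ either (adjusted p = 0.397).

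**Figure D4:**
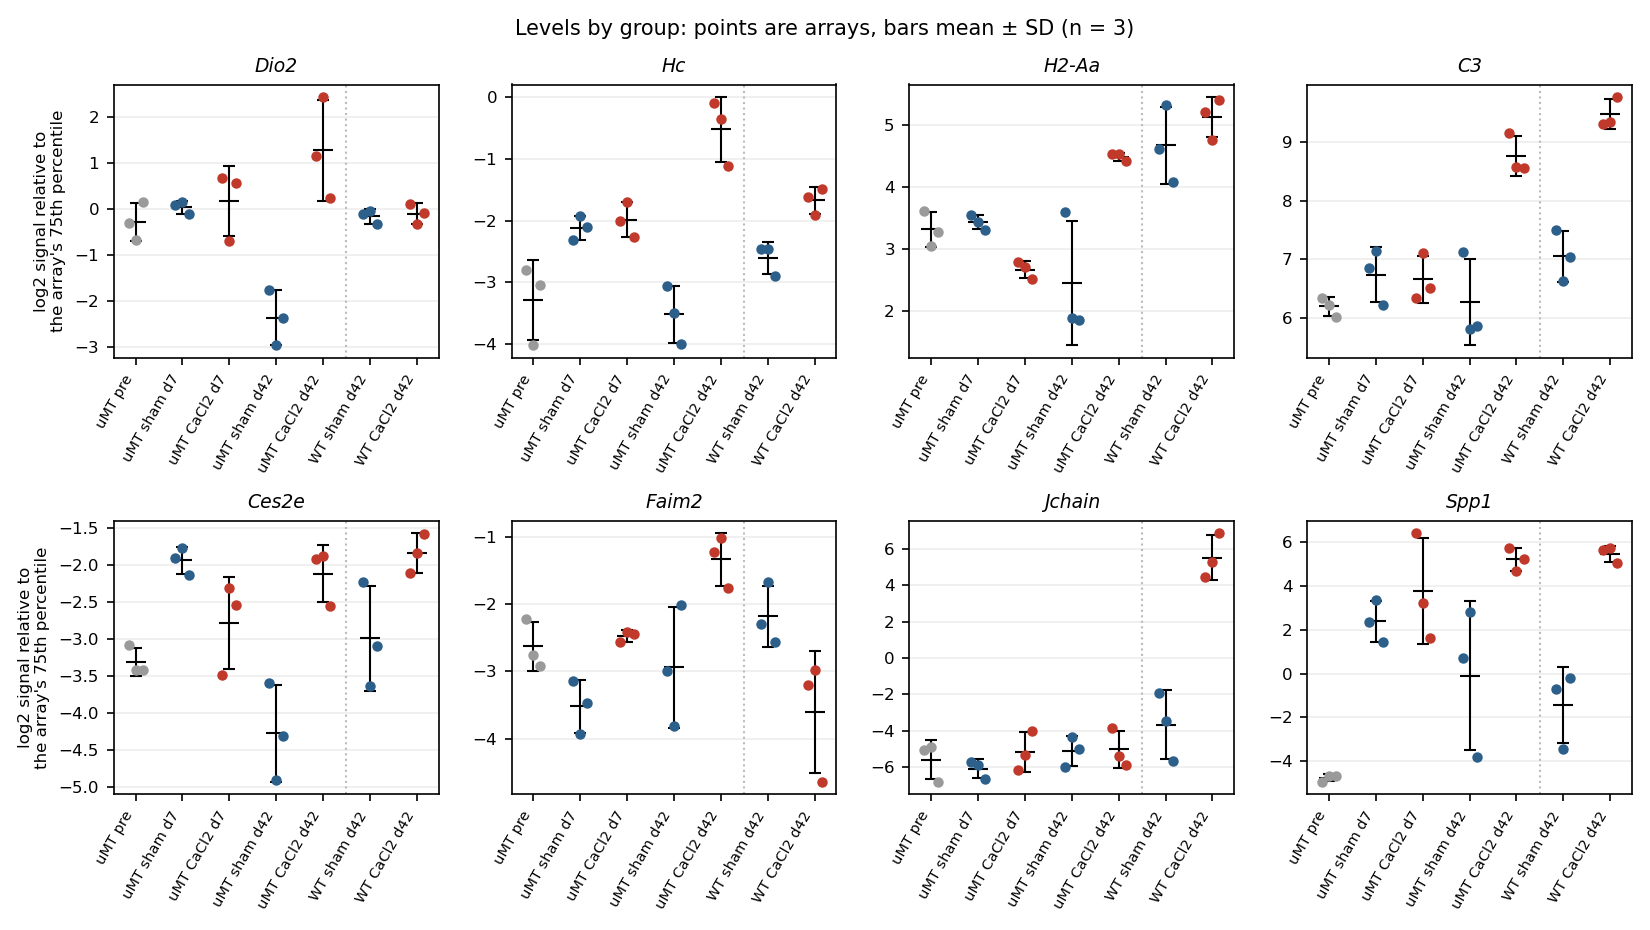
Level (log2, against the 75th percentile of the array) of 8 genes in the 5 uMT groups and the 2 WT groups of day 42 (d7 and d42 are the days), with points for arrays and bars for mean ± SD (n = 3). Dio2, Ces2e, Hc and H2-Aa have their lowest mean in the uMT sham group of day 42. C3, Hc, H2-Aa and Dio2 have their highest mean among uMT groups after CaCl2 at day 42. Jchain is high only in the WT CaCl2 group.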

How the data were processed

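Total RNA of mouse aorta was labelled with Cy3 and hybridised to 30 1-colour Agilent arrays. Per the file headers, the deposited intensities were extracted with Feature Extraction 10.7.1.1 and are background-corrected signals with mm9 probe positions, while the submitters' processing notes name version 9.5.1.1. The labels name 2 different kits for the RNA. The authors also deposited a matrix of processed intensities of the same arrays, which was put on a log2 scale and used only as an alternative. What they did to scale it is not given in the sources used here.

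Each array's log2 processed signal was set relative to its 75th percentile. Of 55657 probes, 33228 were well above background on all 3 arrays of at least 1 group. The brightest kept probe stood for each of 23268 gene names (16017 found among RefSeq symbols, the rest named as in the files). limma 3.58.1 in R 4.3.3 fitted 10 group means over 30 arrays (20 residual degrees of freedom) with Benjamini-Hochberg adjustment at 0.05, and was tested on simulated data. No saturated spot was found, and 3 arrays a group limit the precision. Genes were named by rule: the 12 largest rises and 12 largest falls past the test without overlap (895 and 251 qualified), up to 5 called members of each of 47 lists (582 of 630 entries tested), the interaction genes, and a fixed set; others are marked where named, and a few are not reported here. The members and lists were chosen with earlier results of these data known. Samples with the same replicate number did not deviate together (r = -0.378, -0.006 and -0.209), so the numbers pair nothing. Alternatives covered background correction, scaling, the filter, probe summary, array weights, slide and replicate blocks, and each array left out.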

Additional observations from a re-analysis of the deposited data

Results flagged for a closer look

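In uMT mice the response to CaCl2 was larger at day 42 than at day 7 by 3.50 ± 0.63 (SE) for Dio2, 3.0 ± 0.52 for Ces2e, 2.87 ± 0.47 for Hc, 2.83 ± 0.51 for H2-Aa and 2.58 ± 0.46 for C3, each past the test of the difference in limma. For Dio2, Ces2e, Hc and H2-Aa the sham group of day 42 had the lowest mean of the uMT groups. For C3, Hc, H2-Aa and Dio2 the CaCl2 group of day 42 had the highest. The response of uMT mice differed from that of WT mice at day 42 by 3.58 ± 0.63 for Dio2, 3.02 ± 0.55 for Faim2 and -9.12 ± 1.44 for Jchain, also by that test. Jchain was not well above background in either uMT group, so its value is a fitted difference and no bound. Groups held 3 arrays each, too few to test single arrays as outliers.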

How the results depend on the processing

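Over 20 alternatives no named gene's call reversed. Leaving aside slide as a random block, 50 of the 143 called genes were called in all 19 others, and Cdkn2a, Chil1 and Cxcl3 in all 18 that tested them (the 50 hold Thbs4, Il1b, Prg4, Ccl2, Fap, Timp1, Dio2 and Hc), and 101 in 15 or more. Counts are given as higher and lower. For day 42 they were 1301 and 642 with normexp and quantile normalization, 849 and 223 with no filter, 506 and 112 with the compared groups only, 2063 and 1431 when WT sham day 42 replicate 2 was dropped, 3389 and 2916 with array weights (whose fit warned of poor convergence), 0 and 0 with slide as a random block, and 2658 and 2221 with that block but without the WT array. For day 42 minus day 7, in the same settings, they were 37 and 2, 0 and 0, 0 and 0, 111 and 16, 1962 and 989, 115 and 14, and 111 and 16; quantile normalization or the authors' matrix gave 5 and 1, the percentile over detected probes 16 and 1, uMT arrays alone 0 and 0, and slide as a fixed block, which cannot be estimated for the other comparisons, 92 and 13. For uMT minus WT they were 4 and 37, 2 and 15, 0 and 0, 8 and 96, 692 and 1103, 0 and 0, and 17 and 145, with 9 and 61 under quantile normalization, 9 and 53 in the authors' matrix and 2 and 3 with a filter of 15 arrays. With the compared groups only, 3 macrophage, 2 dendritic cell, 0 lysosome, 0 cell cycle and 0 mast cell genes passed. The causes were not tested. Leaving out 1 array gave 426 to 1189 and 70 to 509 for day 42, 0 to 173 and 0 to 15 for day 42 minus day 7, and 0 to 8 and 4 to 96 for uMT minus WT. For day 42 the counts fell by over 1.5 times without sham replicates 2 or 3 or CaCl2 replicates 1 or 2. The replicate number as a block gave 1056 and 372, 11 and 0, and 2 and 16. Calls rest on 3 arrays a group and on a spread pooled over all groups, and dim probes have only bounds: with such members at their bound 7 list medians moved, by -0.9 at most.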
